A study of Arabidopsis thaliana with 32 samples.

Results

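In the endosperm of hybrid Arabidopsis thaliana seeds, 92 nuclear genes gave allele reads that came almost entirely from the mother. They were chosen from the 4 endosperm libraries of the reciprocal Col and C24 hybrids, as nuclear genes with at least 10 allele reads and a maternal share of at least 85% in each library. Of 33602 genes in the count tables, 8271 nuclear genes had the reads, 100 met both thresholds, and 8 of those were among 10 genes that the choice leaves out by name. All 92 were protein coding in the annotation. The shares in those 4 libraries chose the genes, so they are described here and not tested. The CNS hybrids, the embryo libraries and the gene counts of the selfed seeds were not used in the choice, and the tests were made on them.

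Endosperm and embryo had been cut from seed sections by laser capture microdissection, which isolates chosen areas under the microscope, and their polyadenylated RNA was sequenced. The standard seeds were Col x Col, C24 x C24, Col x C24 and C24 x Col, with the mother first. The CNS seeds came from lines that pair the nucleus of 1 accession with the chloroplasts and mitochondria of the other: selfed C24(Col), with a Col nucleus, selfed Col(C24), with a C24 nucleus, and hybrids in which Col(C24) stands second (replicate 1 Col x Col(C24), replicate 2 C24(Col) x Col(C24), so of uneven cytoplasm) or first (Col(C24) x Col). There were 2 libraries for each of the 16 groups of cross and tissue, 32 in all. In every cross with Col(C24) second the mother had the Col nucleus, and with Col(C24) first the C24 nucleus. Seed age is not given in the labels, nor whether replicate libraries came from separate plants or whether captured areas shared a plant. P-values therefore measure the spread between these libraries and may be too small.

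Endosperm, the tissue that nourishes the embryo, forms when the central cell with its pair of maternal nuclei is fertilised, so that maternal reads are expected to outnumber paternal reads by 2 to 1, against 1 to 1 in the embryo. Imprinted genes depart from this ratio because the maternal and paternal copies differ in epigenetic marks, and 1 of them is silent or less active. The seed coat around the endosperm is purely maternal tissue, and its RNA carries maternal alleles only. It makes flavonoids and tannins in its inner layer, mucilage in its outer layer, and a cuticle on the side of the endosperm.

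Depth ran from 8.64 to 54.3 M counts (M, 1e6) per library, and nuclear allele reads per hybrid library from 1.42 to 6.19 M. Levels are in CPM, counts per 1e6 counts in genes of the library. Embryo markers summed to 150 to 523 CPM in endosperm and 1258 to 1834 CPM in embryo, and endosperm markers to 1212 to 2031 and 324 to 561 CPM. Of 24 seed coat markers listed, 22 were matched, and none of the 22 was at 0 over the endosperm libraries, although 2 averaged under 1 CPM. The seed coat markers that are not among the 92 genes summed to 289 to 1383 CPM (median 628) in endosperm and 89.1 to 212 CPM in embryo. Their part in the results below was not tested. The 92 genes themselves summed to 2688 to 8022 CPM in the 16 endosperm libraries and 723 to 1285 CPM in the 16 embryo libraries. Fewer cells of a type and less RNA per cell cannot be told apart in such data. Sums of several genes, and the ratios between replicates given below, use CPM of the library total, while CPM of single genes are also scaled by edgeR's TMM factors, so those scales differ.

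Over the 4 libraries that chose them, the genes had a median maternal share of 99.4% (87.6% to 100%), while the median over all genes with enough reads was 65.0% to 69.4% in each library. Of the 92 genes, 82 had a pooled share of at least 95%, and 19 had no paternal read at all. The genes just inside the threshold, by their lowest library, were AT1G59920, LTPG2 and KCS19 at 85.7% and AHA10 at 86.4%. Just outside stood WRKY21 at 84.9%, ARA1 at 84.8%, AT4G03090 at 84.7% and AT1G62790 at 84%. Chromosomes 1 to 5 held 27, 11, 17, 13 and 24 of the genes, which is 0.944% to 1.24% of the genes with enough reads on each. Neighbouring members lay within 50000 bases of each other in 6 cases, closest for the adjacent MADS-box genes AT1G59920 and AT1G59930, 1082 bases apart, and for the F-box genes AT3G23950 and AT3G23970, 6283 bases apart. Reads of such neighbours of 1 family, and of SK9, AT5G39130, LTP4, GILT and AT4G12890, which belong to gene families, may be split uncertainly between copies. How alike their sequences are was not measured.

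**Figure D1:**
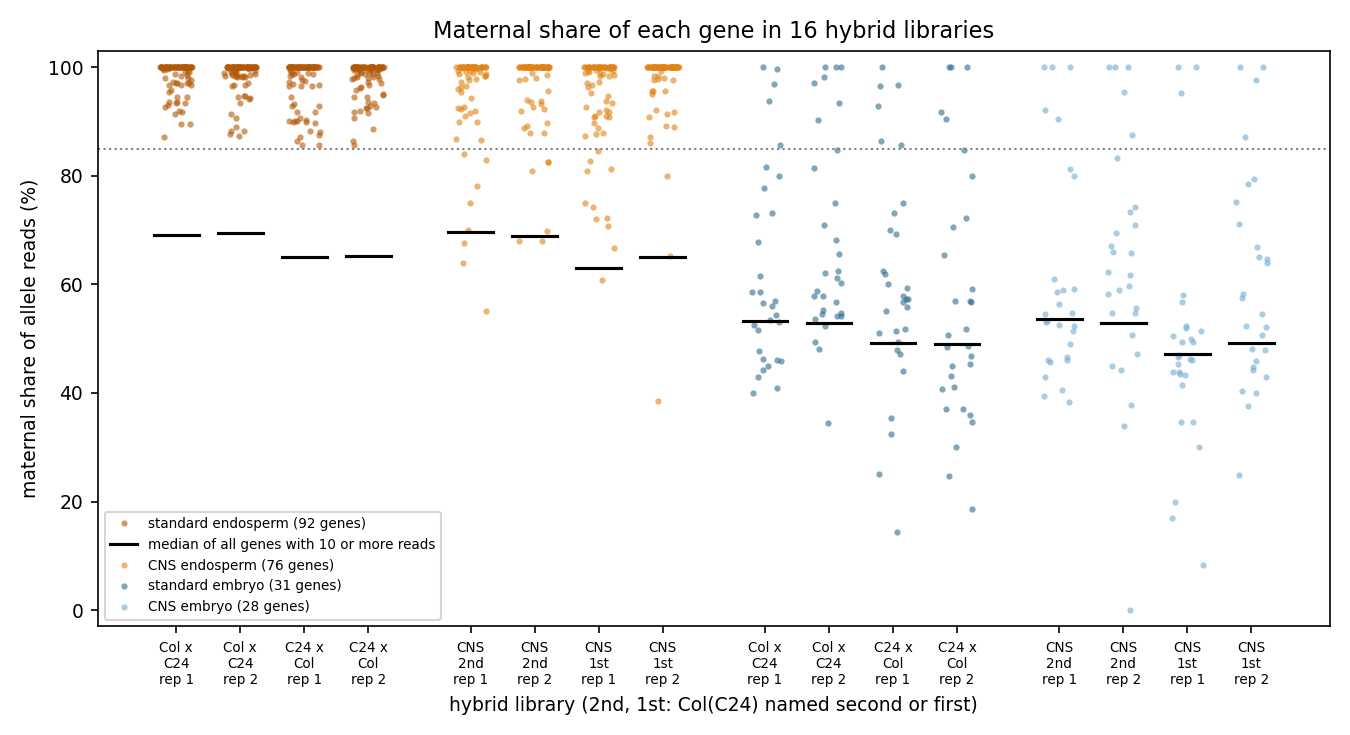
Maternal share of allele reads (%, vertical axis) of each maternal gene in the 16 hybrid libraries (horizontal axis), 1 point per gene with at least 10 reads in every library of its set; black bars are the median of all genes with enough reads, and the dotted line is the 85% that chose the genes in the standard endosperm. Most CNS endosperm points lie above the line, and most embryo points lie near the black bars at 47.1% to 53.6%.

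In the endosperm of the CNS hybrids, which played no part in the choice, most of the genes were again read from the mother. Of 76 genes with at least 10 reads in each of the 4 CNS endosperm libraries, 54 were called maternal and 0 paternal (0 also at an unadjusted p under 0.05) by edgeR's quasi-likelihood test on allele counts (Benjamini-Hochberg adjusted p under 0.05, 2:1 expected), beside 1.18% of 9219 genes called maternal and 1.13% called paternal. Those 54 made up 49.5% of the 109 maternal calls in that set and 58.7% of the 92 genes. The pooled share was at least 85% in 67 of 76, the median was 98.7% (69.5% to 100%), and 20 had no paternal read. By library the median share of the 76 was 99.8% and 100% with Col(C24) second and 99.0% and 100% with Col(C24) first, against 63.0% to 69.6% over all genes. The remaining 16 genes had fewer than 10 reads in some library, and 14 of these had a pooled share of at least 85%. Of the 22 genes that were tested and not called, 12 were higher in endosperm than in embryo and 7 lower. Seed coat marker sums in these libraries were 395, 718, 459 and 610 CPM, and in the standard hybrid endosperm 626, 1143, 587 and 1383 CPM.

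The flavonoid pathway supplied 4 of the genes: TT4, the chalcone synthase that opens the pathway, TT7, a hydroxylase of the flavonoid ring, DFR, the reductase on the way to tannins and anthocyanins, and GSTF12, which carries flavonoids to the vacuole. In the CNS endosperm TT4 (chromosome 5, 4488476 to 4490264) had 18 of 18, 372 of 372, 32 of 32 and 215 of 215 maternal reads, and the absence of a paternal read allows a paternal share of up to 0.471% (3 counts of the total; counting error only). GSTF12 (chromosome 5, 5658416 to 5659661) had 78 of 78, 390 of 390, 174 of 176 and 300 of 300, a pooled 99.8% (exact Clopper-Pearson 95% interval 99.2% to 99.97%). DFR (chromosome 5, 17164093 to 17166032) had 86 of 87, 337 of 337, 176 of 179 and 450 of 471. TT7 (chromosome 5, 2560328 to 2563137) was less uniform, with 95 of 113, 653 of 660, 50 of 55 and 94 of 94. All 4 were called maternal by edgeR with Benjamini-Hochberg adjustment, at adjusted p = 0.00039 for TT4, 7.1e-05 for GSTF12, 9.0e-05 for DFR and 0.030 for TT7. The TT7 call was lost without replicate 2 of Col(C24) second (adjusted p = 0.71) or without either replicate of Col(C24) first (0.10 and 0.55), and the TT4 call with DESeq2 (0.22).

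The flavonoid genes were also higher in endosperm than in embryo. In the selfed seeds DFR stood at 65.2 and 49.2 CPM in Col endosperm, 35.1 and 90.0 in C24 endosperm, and 1.23 to 6.35 in the 4 embryo libraries. TT4 stood at 168 and 186 CPM in Col endosperm, 69.1 and 201 in C24 endosperm, and 14.4 to 20.1 in embryo. Every endosperm library was above every embryo library for both genes. The log2 difference was 4.43 ± 0.34 (SE) for DFR (adjusted p = 4.7e-06, edgeR), 3.11 ± 0.31 for TT4 (2.4e-05), 4.75 ± 0.34 for GSTF12 (3.6e-06) and 4.21 ± 0.67 for TT7 (0.00040).

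The 250 bases before the start of these 4 genes are shown because the genes moved together between tissues and lie in a known pathway; they are from RefSeq's TAIR10.1 sequence. Capitals mark matches, on either strand, to CACGTG (G-box, bound by bZIP and bHLH factors), ACCNANC (AC element, bound by MYB factors), CATGCA (RY element, bound by B3 factors of seed maturation) or the CArG box of MADS proteins, and matches may overlap.
TT4 (chr5:4488226-4488475, plus strand): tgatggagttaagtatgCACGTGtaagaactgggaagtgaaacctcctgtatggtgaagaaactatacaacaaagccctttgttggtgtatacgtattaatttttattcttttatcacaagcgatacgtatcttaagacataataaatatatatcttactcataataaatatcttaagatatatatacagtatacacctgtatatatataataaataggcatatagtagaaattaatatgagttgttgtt
TT7 (chr5:2560078-2560327, plus strand): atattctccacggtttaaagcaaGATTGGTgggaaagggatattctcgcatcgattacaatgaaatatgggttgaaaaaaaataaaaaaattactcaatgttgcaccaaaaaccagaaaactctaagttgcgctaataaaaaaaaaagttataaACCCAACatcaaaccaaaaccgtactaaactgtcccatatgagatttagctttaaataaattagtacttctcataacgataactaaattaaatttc
DFR (chr5:17166033-17166282, minus strand): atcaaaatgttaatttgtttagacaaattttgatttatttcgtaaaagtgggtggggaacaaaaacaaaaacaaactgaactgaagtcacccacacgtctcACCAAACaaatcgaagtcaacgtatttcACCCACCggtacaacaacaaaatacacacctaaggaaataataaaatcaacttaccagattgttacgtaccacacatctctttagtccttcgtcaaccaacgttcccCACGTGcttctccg
GSTF12 (chr5:5658166-5658415, plus strand): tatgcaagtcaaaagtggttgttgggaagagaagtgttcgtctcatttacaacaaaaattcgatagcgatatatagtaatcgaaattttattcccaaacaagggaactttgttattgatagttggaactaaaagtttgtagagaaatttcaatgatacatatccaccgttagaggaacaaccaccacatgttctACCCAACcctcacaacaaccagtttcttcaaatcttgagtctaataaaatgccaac
In these windows TT4 held a G-box, GSTF12 a single AC element, TT7 a pair of AC elements, and DFR a pair of AC elements and a G-box near the gene. Over all 92 genes the G-box was found in 9.8% and the AC element in 23.9%, beside 7.8% and 27.5% of 8248 genes with enough allele reads and a reference entry.

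Other genes of phenylpropanoid metabolism split between the tissues. AHA10, a proton pump of the vacuole in seed coat cells, was higher in endosperm in selfed seeds (log2 2.58 ± 0.55, adjusted p = 0.0025, edgeR). It had 93 of 93, 55 of 68, 42 of 52 and 15 of 39 maternal reads in CNS endosperm and was not called maternal (adjusted p = 0.99, edgeR). C4H, an early enzyme of phenylpropanoid synthesis, was lower in endosperm, with 11.7 to 23.1 CPM in the 4 selfed endosperm libraries and 38.8 to 53.4 in embryo (log2 -1.30 ± 0.21, adjusted p = 0.00042, edgeR). MYB4, a repressor of that pathway, stood at 0.348 to 3.82 CPM in endosperm and 4.94 to 16.9 in embryo (-2.02 ± 0.58, adjusted p = 0.012). ADT4, which makes phenylalanine, had 329 maternal reads of 334 in CNS endosperm and was called (adjusted p = 0.026, lost at 0.10 to 0.27 without either replicate of Col(C24) second or replicate 2 of Col(C24) first), but its level did not pass the tissue test (0.76 ± 0.33, adjusted p = 0.061). Of the 8 genes placed here, 5 were called maternal in CNS endosperm, beside 71.1% of all members tested and 1.18% of all genes.

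Among 22 matched seed coat markers, 13 had enough allele reads in the standard endosperm, and 6 were members: DFR, TT4, TT7, GSTF12, AHA10 and BXL1. BXL1 trims sugars from the walls of mucilage cells, and all of its 131, 122, 77 and 119 reads in CNS endosperm were maternal. Its level did not differ beyond the test between the tissues, at 20.6 to 70.3 CPM in selfed endosperm and 22.6 to 45.6 CPM in embryo (log2 -0.18 ± 0.33, adjusted p = 0.66, edgeR). In the standard hybrid embryos its shares were 58.5%, 65.6%, 55.8% and 56.7% (adjusted p = 0.055). Of the 13 genes with reads, 11 had a pooled share of at least 85% in standard endosperm, and the lowest was 70.1%. These are the libraries that chose the members. The 11 include the 6 members and 3 genes that met the thresholds but were left out by name. TT5 and DELTA-VPE reached 85% only when pooled, with 64.1% and 78.7% in their lowest library. Over all genes, 92 of the 8271 with enough reads were members, which takes 85% in each library. The share of all genes at a pooled 85% was not computed. Of 13 maternally expressed imprinted genes matched, 8 had enough reads and 0 were members, although 2 of the genes left out by name were on that list. No member came from 6 other lists, which name chosen genes and not whole families. The MADS-box members AGL102, AT1G59920 and AT1G59930 are not among the 14 names on the type I MADS list. Of their genes, 7 of 14 matched endosperm genes had enough reads, 6 of 25 embryo, 10 of 23 nutrient transport, 8 of 11 DNA methylation, 3 of 12 type I MADS and 1 of 8 ovule genes.

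Genes for surface lipids were the next group, 10 genes of which 6 of the 8 with enough reads were called maternal in CNS endosperm. Beside this, 71.1% of all members tested and 1.18% of all genes were called maternal in CNS endosperm. LTP6, a lipid transfer protein, had 147, 1169, 52 and 580 reads there, and every read was maternal (adjusted p = 4.9e-06, edgeR). Its level was 307, 330, 88.7 and 297 CPM in the selfed endosperm libraries and 12.3 to 46.4 in embryo, without overlap (log2 3.27 ± 0.35, adjusted p = 3.4e-05). LTPG2, a lipid transfer protein bound to the cell surface, had the lowest share, with 22 of 40, 51 of 75, 27 of 36 and 16 of 16 maternal reads. LACS1, which activates fatty acids for wax and cutin, had 148 of 219, 235 of 285, 143 of 198 and 147 of 147. Neither was called, at adjusted p = 0.99 for LTPG2 and 0.83 for LACS1. Both were far lower in endosperm than in embryo: LTPG2 at 7.68 to 10.8 against 66.2 to 99.1 CPM (log2 -2.99 ± 0.17, adjusted p = 1.3e-06) and LACS1 at 12.3 to 29.2 against 83.02 to 97.0 CPM (-2.20 ± 0.24, 3.7e-05). KCS19, an enzyme of fatty acid elongation, fell as well (-1.16 ± 0.18, adjusted p = 0.00042). By contrast KCS3 of the same family was higher in endosperm (3.48 ± 0.34, adjusted p = 2.1e-05), as was the cutin hydroxylase CYP86A2 (2.71 ± 0.30, 4.6e-05).

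Regulators of DNA or RNA made up 12 of the genes, and 11 of 12 were called maternal in CNS endosperm (71.1% of all members tested, 1.18% of all genes). All 12 of 12 were higher in endosperm than in embryo in selfed seeds (edgeR, 79.1% of members, 33.7% of all genes). These counts depend on the grouping. MYB4, also a MYB factor, was placed with the phenylpropanoid genes above. It was lower in endosperm in selfed and CNS seeds and was not called maternal in CNS endosperm. AT1G59930, a MADS-box gene, had more reads than any other and was not wholly maternal, with 7031 of 7146, 7638 of 7989, 7142 of 7365 and 7780 of 7952 reads in CNS endosperm (97.2%, exact 95% interval 97.0% to 97.4%). Its fitted maternal effect was 4.20 ± 0.21 log2 units beyond 2:1 (adjusted p = 3.9e-07, edgeR). The neighbour AT1G59920 had 3533 of 3564, 2688 of 2741, 1666 of 1776 and 763 of 836 reads (3.94 ± 0.20, adjusted p = 3.9e-07). AT4G04580, a homeodomain-like gene, had 507 of 508, 597 of 597, 2039 of 2057 and 3219 of 3274 (7.08 ± 0.30, 1.9e-07). AGL102, another MADS-box gene, reached 95.5%, MYB22 97.7%, the SET domain gene SDG21 95.1% and AGO3, an Argonaute protein that binds small RNAs, 99.3%. JLO, a LOB domain gene of organ boundaries, had 1019 of 1026, 1264 of 1264, 468 of 469 and 601 of 601.

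**Figure D2:**
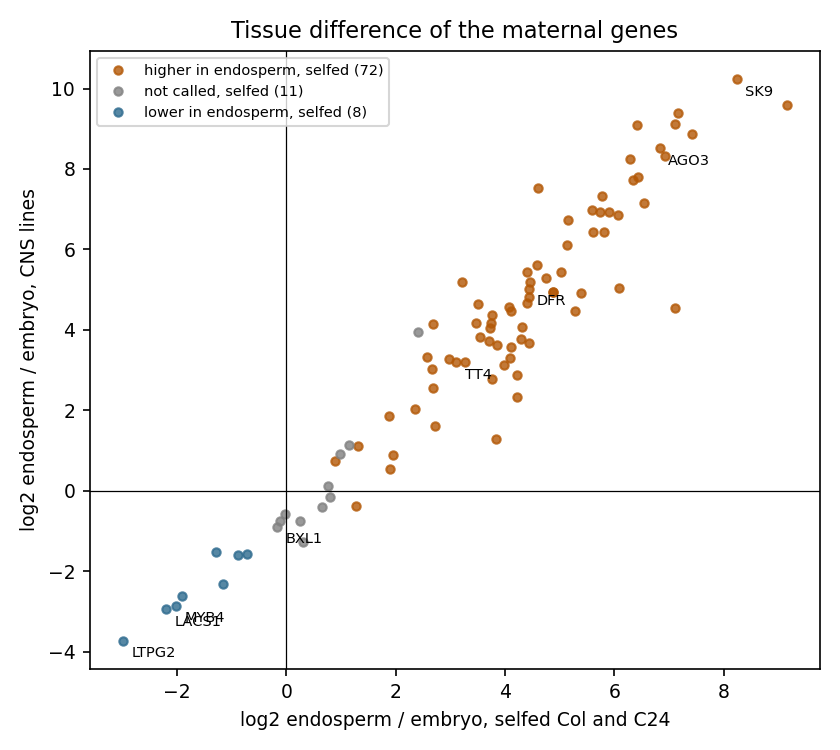
Log2 difference between endosperm and embryo of 91 maternal genes in selfed Col and C24 seeds (horizontal axis, 4 libraries per tissue) and in CNS seeds (vertical axis, 8 libraries per tissue), coloured by the call in the selfed seeds. The points run along a diagonal from LTPG2 at -2.99 and -3.72 to AT1G20730 at 9.15 and 9.58.

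Most of the genes were higher in endosperm than in embryo. In selfed standard seeds 72 of 91 genes tested were called higher and 8 lower by edgeR (adjusted p under 0.05), beside 33.7% and 34.9% of 19525 genes. The median log2 difference was 3.98 for the 91 genes and -0.05 for all genes. Members had to have at least 10 allele reads in each standard hybrid endosperm library, so genes absent from endosperm could not be among them. The genes beside them were not held to this, and the share among the 8271 genes that met it was not computed. In CNS seeds 69 were higher and 10 lower, beside 34.8% and 33.9% of 21816 genes, with a median of 4.04. Of these, 68 were higher and 8 lower in both sets, and 0 changed direction. AT2G05915 was not tested in either, since its counts were near 0 in the count tables although the allele tables held 336 reads of it in standard endosperm.

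The 8 genes named for the largest increase in selfed seeds were all near 0 in embryo. SK9, a Skp1-like subunit of ubiquitin ligases, stood at 37.5 and 11.6 CPM in Col endosperm, 6.43 and 11.2 in C24 endosperm, 0.602 in 1 Col embryo library and 0 in the other 3 embryo libraries (log2 8.24 ± 0.93, adjusted p = 8.2e-05, edgeR). AT1G20730, annotated only by a protein domain, was at 13.5 to 47.0 CPM against 0 to 0.468 (9.15 ± 0.86, 2.9e-05). AGO3 was at 14.0 to 82.6 CPM against 0.0561 to 1.54 (6.83 ± 0.73, 3.4e-05). The F-box gene AT3G23950 was at 14.96 to 41.6 CPM against 0.0575 to 0.334 (7.10 ± 0.37, 8.4e-07), and AT4G03945, an inhibitor of invertase or pectin methylesterase, at 17.5 to 73.5 against 0 to 1.00 (6.92 ± 0.40, 1.3e-06). AT1G51035 (7.42 ± 0.69, adjusted p = 1.4e-05) and AT1G61090 (7.16 ± 0.89, 8.6e-05) are of unknown function. AT3G24542 was at 0.232 to 1.90 CPM in endosperm and at 0 in all 4 embryo libraries, which puts its log2 difference at 4.93 or more against 3 counts over the group.

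The 8 genes lower in endosperm included LTPG2, LACS1, MYB4, KCS19 and C4H, given above, with SVB and AT5G12950. SVB, a gene of leaf hair growth, was at 21.5 to 50.2 CPM in selfed endosperm and 88.7 to 204 in embryo (log2 -1.91 ± 0.26, adjusted p = 0.00015, edgeR). AT5G12950 was at 17.0 to 40.8 CPM against 35.01 to 58.9 (-0.72 ± 0.25, adjusted p = 0.028), groups that overlap. In CNS endosperm the 7 of the 8 genes with enough reads had a median maternal share of 81.7% (69.5% to 99.3%), against 99.3% for the 60 members that were higher in endosperm and 95.9% for the 8 not called.

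RY elements, which B3 factors bind in seeds, were found in the 250 bases before 16 of the 92 genes (17.4%), beside 536 of 8248 genes (6.5%). Of the 16 genes, 13 were higher in endosperm, 2 lower and 1 not called, beside 79.1% of the members tested and 33.7% of all genes higher. Matches are counted on both strands, so CATGCATG and TGCATGCA each count as 2 overlapping matches. The windows of 4 of these genes are shown, chosen after the matches were seen: 3 F-box or Skp1-like genes, and AT1G20730, with the largest increase in selfed standard seeds (9.15; in CNS seeds SK9 had 10.2 and AT1G20730 9.58). Capitals mark matches to the same motifs as above.
AT3G23950 (chr3:8654165-8654414, minus strand): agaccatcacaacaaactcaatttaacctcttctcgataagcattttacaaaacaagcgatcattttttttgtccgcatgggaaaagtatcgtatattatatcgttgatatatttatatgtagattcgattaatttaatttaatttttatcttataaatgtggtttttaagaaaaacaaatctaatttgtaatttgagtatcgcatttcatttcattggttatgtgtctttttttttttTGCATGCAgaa
AT3G23970 (chr3:8661689-8661938, minus strand): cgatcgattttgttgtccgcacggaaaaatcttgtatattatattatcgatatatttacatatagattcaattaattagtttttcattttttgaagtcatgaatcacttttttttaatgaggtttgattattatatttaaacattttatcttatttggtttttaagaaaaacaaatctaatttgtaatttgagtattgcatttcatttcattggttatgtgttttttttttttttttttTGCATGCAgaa
SK9 (chr3:7697617-7697866, minus strand): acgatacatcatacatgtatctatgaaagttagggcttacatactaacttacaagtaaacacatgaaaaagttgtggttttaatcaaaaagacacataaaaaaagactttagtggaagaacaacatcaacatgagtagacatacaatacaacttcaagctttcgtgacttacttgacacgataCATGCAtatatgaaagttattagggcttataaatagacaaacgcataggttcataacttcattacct
AT1G20730 (chr1:7193922-7194171, plus strand): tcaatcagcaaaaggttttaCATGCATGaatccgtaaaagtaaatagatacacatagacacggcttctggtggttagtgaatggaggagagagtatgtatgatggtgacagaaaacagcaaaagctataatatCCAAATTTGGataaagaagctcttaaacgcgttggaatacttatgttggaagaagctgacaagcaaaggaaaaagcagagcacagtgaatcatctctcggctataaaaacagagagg
AT3G23950 and AT3G23970 both held TGCATGCA just before the gene. A CArG box was found in the window of AT1G20730 and in 4.3% of the 92 genes, beside 2.8% of the 8248. A match is a string of letters, and binding was not measured.

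In hybrid embryos most of the genes with enough reads were read from both parents alike, but these were 31 and 28 of the 92. Over all members with any read the median share was 94.9% in standard and 92.3% in CNS embryo. Of 31 genes with at least 10 reads in each of the 4 standard hybrid embryo libraries, 22 had a pooled maternal share of 40% to 60%, and the median was 52.4% (44.7% to 100%). By edgeR's test against 1:1, 7 of the 31 were called maternal and 0 paternal (0 also at an unadjusted p under 0.05), beside 1% of 9654 genes maternal and 0.0518% paternal. Without Col x C24 embryo replicate 1 the maternal calls were 11, and without C24 x Col replicate 2 they were 3. In CNS hybrid embryos 28 genes had the reads, the median was 54.9% (38.9% to 100%), and GILT and AT1G59930 were called, beside 0.0511% of 9794 genes maternal and 0.0102% paternal; leaving out a library gave 0 calls (Col(C24) first, replicate 2), 1 (first, replicate 1) or 7 (second, replicate 1). In standard and CNS embryo 61 and 64 genes had fewer than 10 reads in a library. Of those, 52 and 46 had a pooled share of at least 85%. The difference in share between the tissues was not tested.

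The 6 genes with the lowest shares in standard embryo are set beside the endosperm of both hybrid sets, of which the standard set had chosen them. STR18, a sulfurtransferase, had 20 of 20, 48 of 48, 17 of 18 and 86 of 93 maternal reads in standard endosperm and 21 of 44, 39 of 55, 11 of 44 and 34 of 92 in standard embryo. ADT4 had no paternal read among 425 in standard endosperm, but 51 of 99, 31 of 90, 30 of 58 and 49 of 101 maternal reads in embryo. AT3G62650 had no paternal read among 136 in endosperm, and in embryo 24 of 33, 36 of 48, 16 of 29 and 16 of 86. STP1, a hexose carrier, was at 96.9% in standard endosperm and 48.3% in embryo, and C4H at 98.8% and 48.9%. SVB, the lowest of all in endosperm at 87.6%, was at 47.0% in embryo. In CNS endosperm, which had not, STR18 had 53 of 59, 42 of 42, 49 of 66 and 75 of 115 maternal reads and was not called (adjusted p = 0.87, edgeR). Pooled shares there were 98.5% for ADT4, 95.9% for AT3G62650, 81.7% for SVB, 81.5% for C4H and 91.4% for STP1. Of these ADT4 was called, AT3G62650, SVB and C4H were not (adjusted p = 0.62, 0.73 and 0.97), and STP1 had too few reads for the test.

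**Figure D3:**
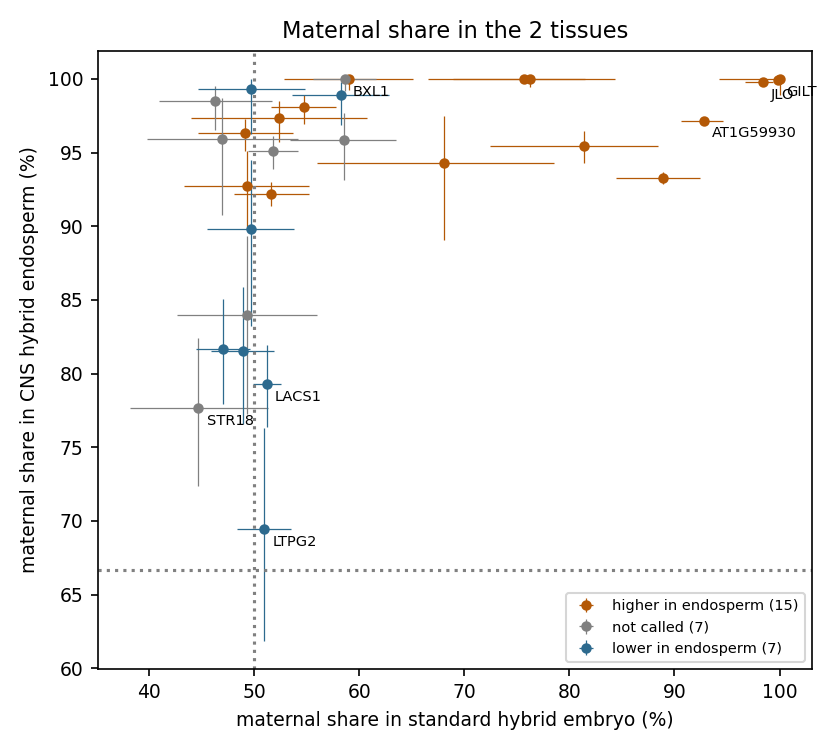
Pooled maternal share in standard hybrid embryo (horizontal axis, %) and in CNS hybrid endosperm (vertical axis, %) of the 29 maternal genes with at least 10 reads in every library of both sets; bars are exact 95% intervals of counting error, and dotted lines mark 1:1 and 2:1. Genes lower in endosperm sit between 47.0% and 58.3% in embryo, and genes higher in endosperm spread from 49.2% to 100%.

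The 7 genes called maternal in standard embryo were GILT, JLO, AT1G59930, AT2G44250, LTP6, CYP709B1 and MLP28. GILT, a thiol reductase, had 243 of 244, 1158 of 1158, 26 of 28 and 308 of 308 maternal reads (8.65 ± 0.33 log2 beyond 1:1, adjusted p = 3.3e-23, edgeR). JLO had 151 of 156, 97 of 97, 60 of 62 and 121 of 121 (5.95 ± 0.40, 6.3e-15). AT1G59930 had 31 of 38, 134 of 138, 163 of 169 and 304 of 336 (3.73 ± 0.28, 3.4e-13). Each of these 3 genes was above 80% in every standard embryo library. AT2G44250 had 8 of 10, 39 of 46, 42 of 49 and 143 of 156 (2.71 ± 0.39, 6.0e-06), and LTP6 21 of 31, 55 of 61, 10 of 16 and 60 of 85 (1.60 ± 0.41, 0.035). CYP709B1, a cytochrome P450, had 10, 19, 10 and 23 reads, all maternal. Seed coat marker sums in the standard hybrid embryos were 131, 212, 143 and 139 CPM.

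MLP28, a latex protein relative, was called maternal in standard embryo (1.35 ± 0.22 log2, adjusted p = 0.000105, edgeR), but its reads there leaned to the Col allele in both directions of the cross. The Col share was 93.8% and 98.1% with a Col mother and 85.6% and 75.4% with a C24 mother. In CNS embryo it was 90.5%, 95.3%, 83.03% and 75.2%. No other member had a Col share above 60% in each of the 4 libraries, and none a C24 share above 60%, among 31 genes in standard and 28 in CNS embryo. In endosperm the share of MLP28 followed the mother, with 197 of 197, 572 of 574, 80 of 81 and 721 of 728 maternal reads in the standard hybrids and 152 of 152, 454 of 454, 168 of 185 and 93 of 93 in the CNS hybrids. TT7 had too few reads in standard embryo for the test. There 39 of 40 and 55 of 65 were maternal with a Col mother and 0 of 3 and 7 of 22 with a C24 mother. In CNS embryo TT7 had enough reads and was not called by edgeR. Its Col share there was 92% and 74.3% with a Col mother and 91.7% and 57.1% with a C24 mother.

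Levels in replicate libraries moved together for many of the genes. C24 x Col endosperm replicate 2 had a seed coat marker sum of 1383 CPM and replicate 1 of 587 CPM. Of 89 members with at least 1 CPM in both, 43 were at least 2-fold higher in replicate 2 and 4 at least 2-fold lower, with a median ratio of 1.98. Of all 16712 genes compared, 3.42% were at least 2-fold higher and 2.25% lower, with a median ratio of 1.00. Among the flavonoid and phenylpropanoid genes 6 of 7 were at least 2-fold higher (TT7 4.16-fold, DFR 3.96-fold, TT4 3.39-fold), and of the 12 regulators 1 was, AGO3. AT1G59930 went from 1159 to 752 CPM, AT2G34890 from 1298 to 612 and AT4G04580 from 1202 to 860, while GILT went from 34.6 to 257 CPM and LTP6 from 105 to 470. The other pairs were compared in the same way, as the library with more seed coat markers over the other. In C24 x C24, with a seed coat ratio of 1.87, 29 of 91 members were at least 2-fold higher and 2 lower, beside 2.62% and 3.85% of all genes. In selfed C24(Col), ratio 2.23, they were 30 and 7 of 83, beside 5.32% and 7.81%. In the CNS hybrid with Col(C24) second, ratio 1.82, they were 40 and 5 of 89, beside 4.94% and 8.02%. The pairs with a small seed coat ratio differed among themselves: Col x Col, ratio 1.19, had 26 and 1 of 87 (4.77% and 3.51%), selfed Col(C24), ratio 1.22, had 24 and 7 of 84 (5.31% and 6.34%), and Col(C24) first, ratio 1.33, had 4 and 6 of 83 (3.44% and 9.27%). Col x C24, at a ratio of 1.83, had 4 higher and 13 lower of 89 (5.06% and 4.19%), with a median ratio of 1.09. Its 8 flavonoid and phenylpropanoid genes had ratios of 1.12 to 1.95 (median 1.38), and its 12 regulators 0.079 to 1.52 (median 0.86). The relation of the members to the seed coat sum was not tested.

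**Figure D4:**
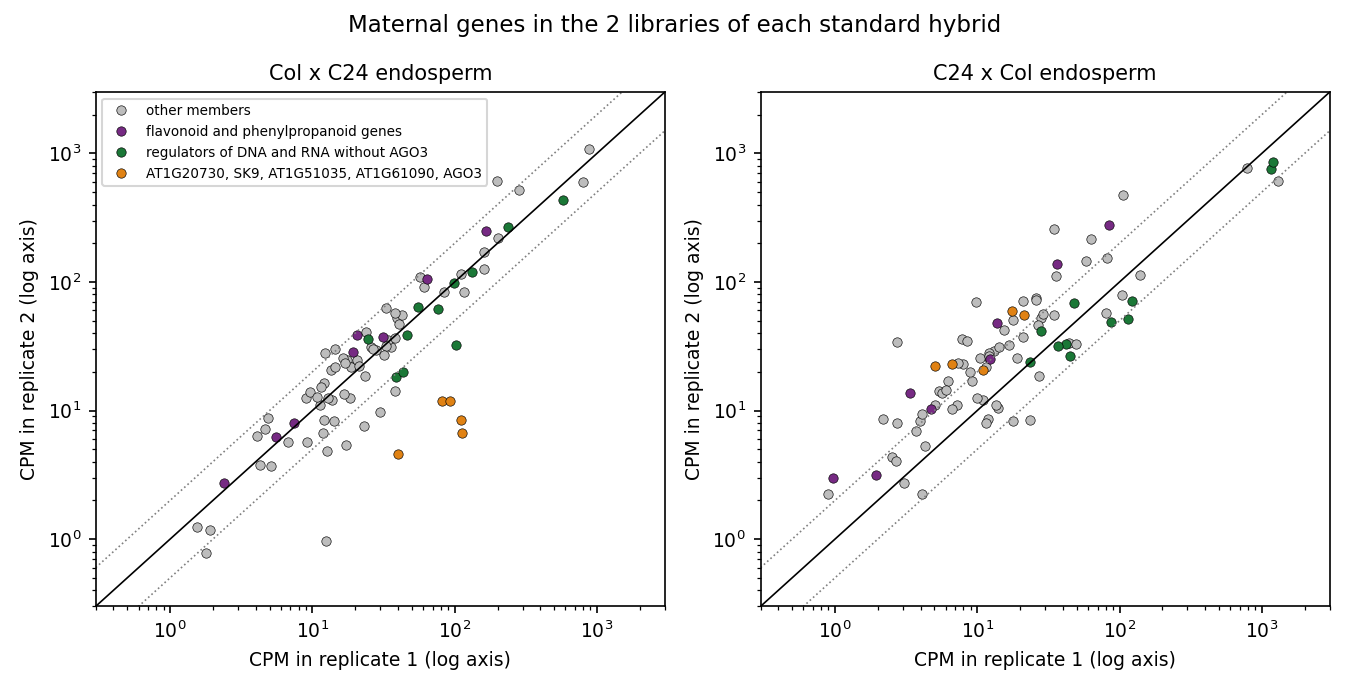
CPM of each maternal gene in replicate 1 (horizontal) and replicate 2 (vertical) of the standard hybrid endosperm, on log axes; the solid line is equality and the dotted lines a 2-fold difference. With a Col mother the 5 orange genes lie far below equality (SK9 at 112 and 6.63 CPM), and with a C24 mother the flavonoid genes lie above equality and most regulators at or below it.

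A set of 5 genes varied together in another way: AT1G20730, SK9, AT1G51035, AT1G61090 and AGO3, all named for their increase over embryo. In Col x C24 endosperm they stood at 81.8, 112, 92.2, 40.01 and 111 CPM in replicate 1 and at 11.8, 6.63, 11.8, 4.55 and 8.45 CPM in replicate 2. They were the 5 lowest ratios of the 89 members in that pair, from 0.062 to 0.15, while the seed coat marker sum was higher in replicate 2 (1143 against 626 CPM). Over the 16 endosperm libraries SK9 ran from 4.43 to 112 CPM (median 11.7) and AGO3 from 8.35 to 111 CPM (median 24.3). All 5 were almost wholly maternal in CNS endosperm, at 99.2%, 99.8%, 100%, 100% and 99.3% in the order named, and each was called by edgeR at adjusted p of 1.6e-05, 5.2e-06, 0.00024, 3.5e-05 and 0.0050. The AGO3 call was lost without either replicate of Col(C24) first (0.053 and 0.16), and the AT1G51035 call with DESeq2 (0.099). The grouping was made after the values were seen.

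A difference in level between the accessions was called for few of the genes. In selfed standard endosperm 7 of 92 were higher in Col and 3 higher in C24, beside 4.94% and 3.02% of 21210 genes (edgeR, adjusted p under 0.05). In selfed CNS endosperm, where the nucleus differs in the cytoplasm of the other accession, 4 were higher with the Col nucleus and 2 with the C24 nucleus, beside 4.24% and 3.66%. The 6 called in both had the same direction in both. Without C24 x C24 replicate 1 the genes higher in Col were 3, and those higher with the Col nucleus were 2 without Col(C24) self replicate 1 and 7 without its replicate 2. Between the CNS hybrids JLO and AT5G39130 were higher with the Col mother and AT4G04580 with the C24 mother, beside 0.0943% and 0.231%. Those calls were 0 in either direction without replicate 1 of Col(C24) second, and 0 when the 2 compared groups were fitted alone.

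**Figure D5:**
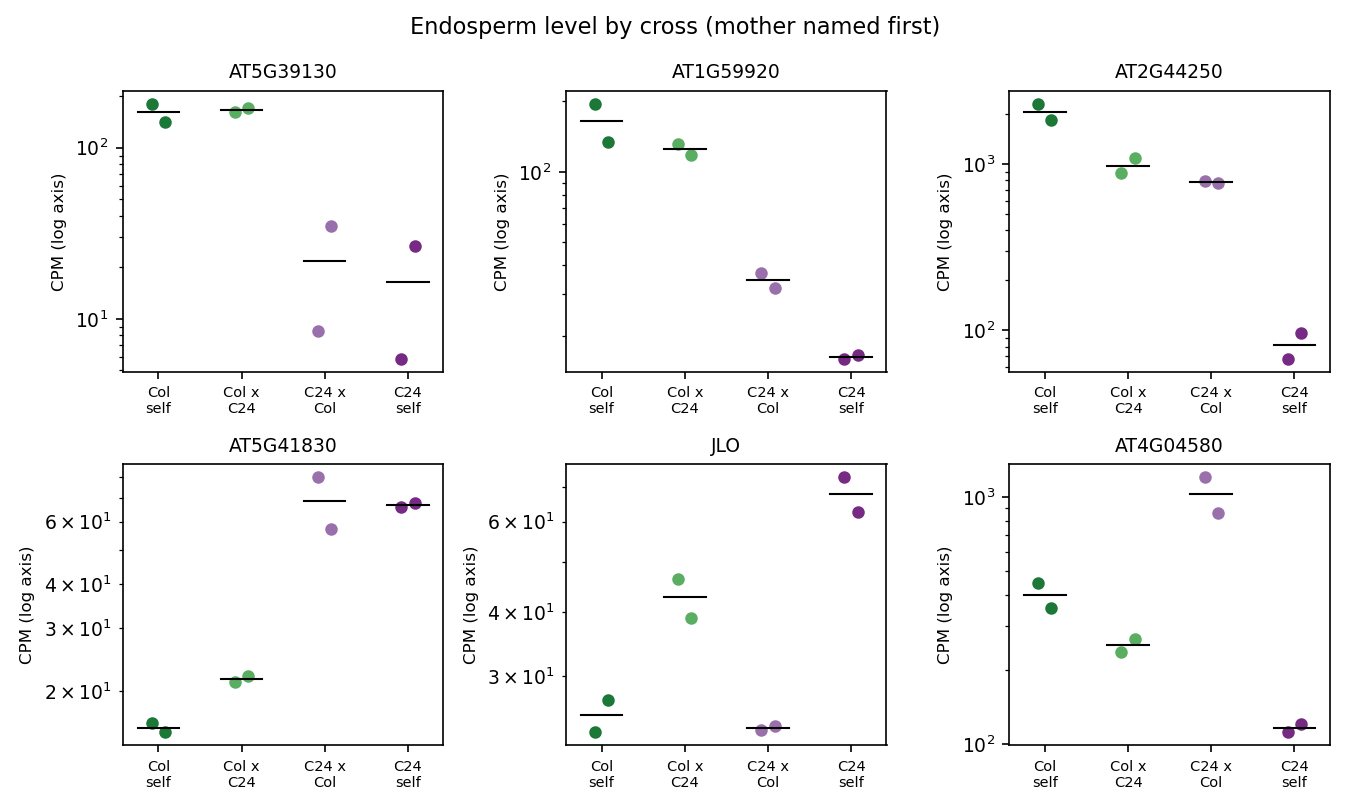
Level of 6 maternal genes (CPM, log axis) in endosperm of selfed Col, Col x C24, C24 x Col and selfed C24, with 1 point per library and a bar at the mean of 2 libraries. AT5G39130, AT1G59920 and AT5G41830 order the hybrids by their mother, and JLO and AT4G04580 order them against it.

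Of the 10 genes called between the selfed parents, 3 are given first. AT5G39130, a germin-like cupin, was at 181 and 142 CPM in Col, 5.82 and 26.8 in C24, 162 and 171 in hybrids of a Col mother, and 8.48 and 34.8 in hybrids of a C24 mother (Col against C24 log2 3.31 ± 0.73, adjusted p = 0.012, edgeR; CNS hybrids 4.00 ± 0.76, 0.042). AT1G59920 was at 195 and 134 CPM in Col, 15.9 and 16.5 in C24, 131 and 119 with a Col mother, and 37.1 and 31.9 with a C24 mother (3.36 ± 0.42, 0.00018). AT5G41830, a leucine-rich repeat protein, was at 16.2 and 15.3 CPM in Col, 65.7 and 67.7 in C24, 21.2 and 22.1 with a Col mother, and 80.1 and 57.1 with a C24 mother (-2.07 ± 0.30, 0.00057). In these 3 genes the hybrids with 1 mother did not overlap those with the other.

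AT2G44250, with the largest difference between the selfed parents, did not follow its mother closely. It was at 2302 and 1830 CPM in Col, 67.4 and 97.0 in C24, 877 and 1082 with a Col mother, and 787 and 768 with a C24 mother (log2 4.66 ± 0.48, adjusted p = 2.9e-05, edgeR). Its maternal share in CNS endosperm was 91.6%, 92.2%, 92.6% and 94.96%, whichever nucleus the mother had, and the CNS hybrids did not pass the test of their difference (log2 -0.04 ± 0.41, adjusted p = 0.99). JLO was higher in C24 than in Col (73.3 and 62.6 against 23.4 and 27.0 CPM) but higher with the Col mother in the hybrids (46.5 and 39.0 against 23.6 and 24.1), and in the CNS hybrids as well (1.20 ± 0.22, adjusted p = 0.037). AT4G04580 showed the reverse: 447 and 357 CPM in Col, 112 and 121 in C24, 235 and 267 with a Col mother, and 1202 and 860 with a C24 mother, with a C24 mother higher in the CNS hybrids (-2.37 ± 0.32, adjusted p = 0.0084). For the 10 genes called between the selfed parents, the standard hybrids are described without a test. They followed the mother without overlap in 5 (AT2G44250 among them, by a small margin). They went against it in 3 (JLO, AT4G04580 and AT5G48650) and overlapped in 2. With 2 libraries a side and no such counts made over all genes, no tendency of the members to follow the mother can be read from these counts.

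Other abundant members were AT2G34890, AT2G38900, AT3G20620 and AT5G48650. AT2G34890, a CTP synthase gene, was at 956 and 625 CPM in Col endosperm and 372 and 483 in C24, and had 1202 of 1298, 1287 of 1443, 1798 of 1960 and 3367 of 3520 maternal reads in CNS endosperm (2.65 ± 0.19 log2 beyond 2:1, adjusted p = 4.8e-06, edgeR). AT2G38900, a protease inhibitor, was at 65.2 to 191 CPM in selfed endosperm, and its 401, 686, 400 and 349 reads were all maternal. AT3G20620, an F-box gene, was at 71.3 to 121 CPM and had 1009 of 1123, 688 of 767, 1019 of 1122 and 1045 of 1067 (2.71 ± 0.29, 0.00017), while in standard embryo it had 86 of 162, 118 of 196, 70 of 122 and 133 of 308. AT5G48650, which belongs to a family of RNA-binding proteins, was at 70.6 to 164 CPM, and its 70 of 73, 28 of 28, 10 of 15 and 24 of 24 maternal reads were not called (adjusted p = 0.91). CESA10, a cellulose synthase, and AT3G20340 were among the lowest shares, with 29 of 35, 34 of 50, 16 of 16 and 14 of 14, and 110 of 172, 76 of 82, 173 of 197 and 49 of 55, and neither was called (adjusted p = 0.95 and 0.54).

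Hormone and peptide genes included JMT, which methylates jasmonate, GAMT1, which methylates gibberellins, the gibberellin-responsive GASA1 and the phytosulfokine precursor PSK4. These 4 were higher in endosperm, in that order at log2 differences of 4.21 ± 0.98, 4.43 ± 0.42, 3.85 ± 0.34 and 4.39 ± 0.35. In CNS endosperm PSK4 had enough reads and was not called (adjusted p = 0.16, edgeR). GAMT1 had no paternal read among 116, nor GASA1 among 180 or JMT among 259. Of 10 genes of the cell wall, 8 were higher in endosperm and 4 of 8 were called maternal, and of 4 transporters 2 were higher and the 1 with enough reads was called. The remaining 38 genes have other or no known functions: 31 of 37 were higher in endosperm, 2 lower, and 23 of 32 were called maternal in CNS endosperm. For these groups the shares to set beside are those of all members tested. Of these, 79.1% were higher in selfed endosperm and 8.8% lower, and 71.1% were called maternal in CNS endosperm. Over all genes the shares were 33.7%, 34.9% and 1.18%.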

How the data were processed

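Gene counts of 32 libraries and allele counts of 16 hybrid libraries were used as deposited by the authors, as whole reads per gene. Trimmomatic, STAR, HTSeq, edgeR and TAIR10 are named in the submitters' processing notes, without roles. Per the labels, RNA was extracted with a micro kit and poly-A selected. The step that split reads by allele, and use of strand, are not given in the sources used here. HTSeq summary lines (2.28% to 17.75% of counts for reads in no gene) were left out.

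Tests used edgeR 4.0.16 (quasi-likelihood, R 4.3.3) with Benjamini-Hochberg adjustment over all genes tested and a threshold of 0.05. Gene counts were filtered at a minimum count of 10 and scaled by TMM. Allele counts were fitted with each library as a block, a Col allele term and a maternal term, against 2:1 in endosperm or 1:1 in embryo. A maternal count of 0 paternal reads was given with a floor of 3 counts. Exact 95% intervals and floors cover counting error only. DESeq2 1.42.0, Python 3.11.15, pandas 2.3.3, scipy 1.17.1 and matplotlib 3.10.9 were also used. The scripts were tested on simulated data. Symbols, coordinates and sequences came from RefSeq's TAIR10.1 entries, whose assembly name differs from the notes' TAIR10.

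Members, lists and groups by function were chosen with earlier results of these data known. Genes were named for being on a marker list, for the highest level, for the largest tissue or accession difference, or for the lowest maternal share in CNS endosperm or in embryo; others, among them JLO, MLP28, CYP709B1, MYB22, SDG21, KCS3, CYP86A2, AT3G23970, JMT, GAMT1, GASA1 and PSK4, were chosen after their values were seen. The sample titles do not say which part of a CNS name is the nucleus. This was settled from the nuclear and organelle allele reads of the CNS hybrids. The selfed CNS libraries had no allele counts, and their nuclei were taken from the same notation. Single results of some genes are not reported here.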

Additional observations from a re-analysis of the deposited data

How the results depend on the processing

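Of the counts of called genes and the median share, 110 alternatives stayed near the first value and 39 moved. Leaving out 1 library gave 71 to 74 higher and 6 to 8 lower in selfed seeds and 66 to 69 and 9 to 14 in CNS seeds. The 54 maternal calls in CNS endosperm were 38 to 49 with 1 library left out, fewest without replicate 2 of Col(C24) first, and the median share of 98.69% ranged from 98.31% to 99.64%. Without a filter on low counts the genes higher in Col were 20 and lower 10, with the Col nucleus 21 and 11, and between the CNS hybrids 21 and 3. With the compared groups alone these were 11 and 5 for Col against C24, 1 lower for the nucleus, and 0 and 0 for the CNS hybrids. DESeq2 gave 9 and 4 for the nucleus, 5 and 2 for the CNS hybrids, 4 in standard embryo and 1 in CNS embryo. In embryo a minimum of 5 reads gave 14 standard calls, and 20 reads gave 4 standard and 1 CNS. Leaving out 1 library gave 3 to 7 and 2 for Col against C24, 2 to 7 and 2 to 3 for the nucleus, 0 to 4 and 0 to 1 for the CNS hybrids, 3 to 11 in standard embryo and 0 to 7 in CNS embryo. Same-numbered libraries deviated together in part: the correlation was over 0.1 for 26 of 28 pairs of CNS groups (0.07 to 0.55), 17 of 28 of all endosperm groups (-0.09 to 0.35) and 3 of 6 of selfed standard groups, so not every pair passed and the numbers were not taken to pair the samples. With a replicate block 6 genes were lower in Col, 8 higher with the Col nucleus and 2 lower between the CNS hybrids, and tissue counts were 72 and 8, and 69 and 11. The cause of these moves was not tested. Among single genes 64 alternatives lost a call, for example STR18 between tissues in CNS seeds (7), AT5G12950 (5), AT5G39130 between the CNS hybrids (5), LTP6 in embryo (4) and AT5G48650 (4).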
